A study of Mus musculus with 6 samples.

Results

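Ribosome biogenesis and nucleolar genes encode the proteins that transcribe ribosomal DNA, modify and cut the precursor RNA, and assemble it with ribosomal proteins into the small and large ribosomal subunits. The work starts in the nucleolus, where RNA polymerase I makes one long precursor. Small nucleolar ribonucleoproteins (snoRNPs) then guide methylation and pseudouridylation of that precursor, and large processing complexes release the subunits for final maturation in the cytoplasm. The pathway takes up much of the biosynthetic effort of a growing cell, and the transcription factor Myc is known to drive many of its genes.

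The list holds 60 such genes, and 38 of them had a probe with that single symbol in the platform annotation, among 8841 genes named that way on the array. The genes were selected by symbol, and they were chosen with earlier results of this contrast known, so their differences between groups are given as a description. Where a gene had several probes the one with the highest mean was to stand for it, but each of the 38 had 1 probe. The remaining 22 were Ddx27, Ddx47, Ddx52, Dkc1, Gnl2, Gnl3, Grwd1, Imp3, Ltv1, Mphosph10, Nob1, Noc4l, Nop14, Nop16, Nop2, Rrp12, Rrp9, Tsr1, Utp14a, Utp18, Utp6 and Wdr74, which were not analysed here. All 38 passed the filter on dim probes, and no value of theirs (0) lay at the floor used for dim signals, their lowest being 0.709 times the array median.

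The samples were cultures of 2T3 cells, a mouse pre-osteoblast line, in OptiCell cassettes, with total RNA from 3 cultures under simulated microgravity on a Random Positioning Machine and from 3 static controls, and 1 array each. The machine turns cultures so that the pull of gravity averages out over time. No source used here gives the length of exposure. Nothing in the labels says whether replicate cultures were grown separately, so a p-value here measures only the spread between these arrays, which may be technical. The measured quantity is the deposited intensity divided by the array's median, called the relative intensity below, and a log2 change is simulated microgravity minus static. A gene is said to have a higher or lower mean by its log2 values, and a ratio is 2 to the power of the log2 change.

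Each array held 10337 to 10432 values, and log2 values of array pairs correlated across probes at 0.97 to 0.99 within groups and 0.96 to 0.99 between groups. The arrays microgravity 2 and static 2 had fewer values at the floor (6.44% and 9.16%) than the other arrays (17.1% to 19.8%). Of 8 osteoblast markers measured, all 8 had lower means in simulated microgravity, against 4364 of all 10146 probes tested. The groups did not overlap for 5 of the 8, all lower, against 7.57% of all probes. Of the 8, 2 passed limma's adjusted p of 0.05 over all probes, against 0.276% of all probes in either direction. Summed relative intensities of the 8 were 201 to 254 in simulated microgravity and 307 to 440 in static cells. Ibsp and Dmp1 lay under the array median on all arrays. All 8 endothelial and epithelial markers and 7 of 8 skeletal muscle markers, the exception being Actn3, lay under the array median throughout, as did 3 of 6 adipocyte markers (Adipoq, Cebpa and Retn) and 5 of 8 macrophage, osteoclast and blood markers (Ptprc, Adgre1, Acp5, Itgam and Cd3e). Summed relative intensities in simulated microgravity and in static cells were 0.703 to 1.18 and 0.712 to 0.904 for endothelium and epithelium, 1.80 to 2.16 and 2.95 to 3.35 for skeletal muscle, 35.8 to 41.6 and 42.8 to 50.6 for adipocytes, and 11.2 to 18.2 and 14.6 to 18.9 for macrophages, osteoclasts and blood. Such sums give most weight to the brightest genes. By gene, the 7 skeletal muscle markers tested had 4 higher and 3 lower means (median log2 change 0.02, range -1.67 to 0.18). The 6 adipocyte markers had 3 higher and 3 lower means (median log2 change -0.01, range -0.78 to 0.36). What part the cell types of these marker lists have in the differences below was not tested.

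All 38 genes had a higher mean in simulated microgravity than in static cells. Log2 changes ran from 0.14 (Imp4) to 1.02 (Utp20), with a median of 0.59, against a median of 0.05 over all 10146 probes tested, of which 57% had a higher mean. None (0) passed limma's adjusted p of 0.05 over all probes, a threshold that 0.276% of all probes passed, and the lowest adjusted p among the 38 was 0.0683. At an unadjusted p under 0.05, 20 of the 38 were higher and 0 were lower, against 5.56% of all probes higher and 5.28% lower. The relative intensities of the groups did not overlap for 21 of the 38, all of them higher in simulated microgravity, against 8.11% of all probes higher and 7.57% lower. The ratio of the groups was over 1.5 for 19 of the 38, against 5.01% of all probes. The groups overlapped for the other 17 genes.

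**Figure D1:**
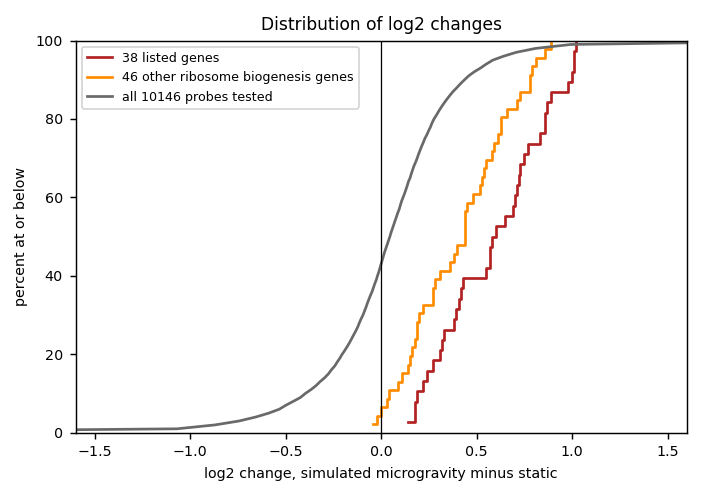
Cumulative distribution of log2 changes (x axis, simulated microgravity minus static) as the percent of features at or below each value (y axis) for the 38 listed genes, 46 other ribosome biogenesis genes and all 10146 probes tested. The curve of the 38 genes starts at 0.14 and crosses the middle at 0.59, while that of all probes crosses it at 0.05.

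The box C/D snoRNP guides methylation of ribosomal RNA, and the 3 measured genes of its proteins had log2 changes of 0.86 to 1.00. Fbl (fibrillarin), its methyltransferase, had relative intensities of 13.7, 13.1 and 13.6 in simulated microgravity, against 6.80, 8.60 and 6.84 in static cells. The 3 microgravity arrays lay within 1.04-fold of each other and all above the highest static array. The ratio of the groups was 1.83 (log2 change 0.87, SE 0.14, limma adjusted p = 0.0890 over all probes).

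Nop56, a core scaffold protein of the same particle, had 17.4, 18.0 and 21.7 in simulated microgravity, against 9.58, 10.4 and 11.4 in static cells, with no overlap (log2 change 0.86, SE 0.15, limma adjusted p = 0.0915). Its paralog and partner Nop58 had 19.5, 16.0 and 18.6 in simulated microgravity, against 8.27, 14.9 and 5.88 in static cells. Nop58 also did not overlap, but its static arrays spread over 2.54-fold and static 2 came close to the lowest microgravity array (log2 change 1.00, SE 0.33, limma adjusted p = 0.322). Leaving out 1 array at a time, or the arrays microgravity 2 and static 2 together, moved the log2 change of Nop58 between 0.70 and 1.45.

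The H/ACA snoRNP guides pseudouridylation, the conversion of uridines in ribosomal RNA to pseudouridine, and the genes of 3 of its core proteins were measured. Nhp2 had 18.5, 14.1 and 22.5 in simulated microgravity, against 9.34, 8.02 and 9.55 in static cells. All microgravity arrays were above all static arrays, at a ratio of 2.02 (log2 change 1.01, SE 0.20, limma adjusted p = 0.109). Gar1 had 16.2, 19.1 and 21.2 in simulated microgravity, against 10.5, 14.3 and 9.60 in static cells, also with no overlap (log2 change 0.73, SE 0.20, limma adjusted p = 0.217). Nop10, the smallest of the core proteins, averaged 1.59 ± 0.176 in simulated microgravity and 1.31 ± 0.362 in static cells (SD, n = 3 each), and its groups overlapped (log2 change 0.31, 95% interval -0.29 to 0.92).

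Pus7 is a pseudouridine synthase that works without a guide RNA, mainly on transfer and messenger RNA. It had 3.79, 4.40 and 3.82 in simulated microgravity, against 2.03, 2.15 and 2.29 in static cells. Both groups were tight, within 1.16-fold in simulated microgravity and 1.13-fold in static cells, and did not overlap (ratio 1.85, log2 change 0.89, SE 0.15, limma adjusted p = 0.0891). Ifrd2, known from rabbit reticulocytes as a factor bound to inactive ribosomes, had the smallest adjusted p of the 38. Its relative intensities were 11.9, 11.8 and 13.4 in simulated microgravity, against 6.89, 6.85 and 7.12 in static cells, a ratio of 1.77 with no overlap (log2 change 0.83, SE 0.12, limma adjusted p = 0.0683).

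**Figure D2:**
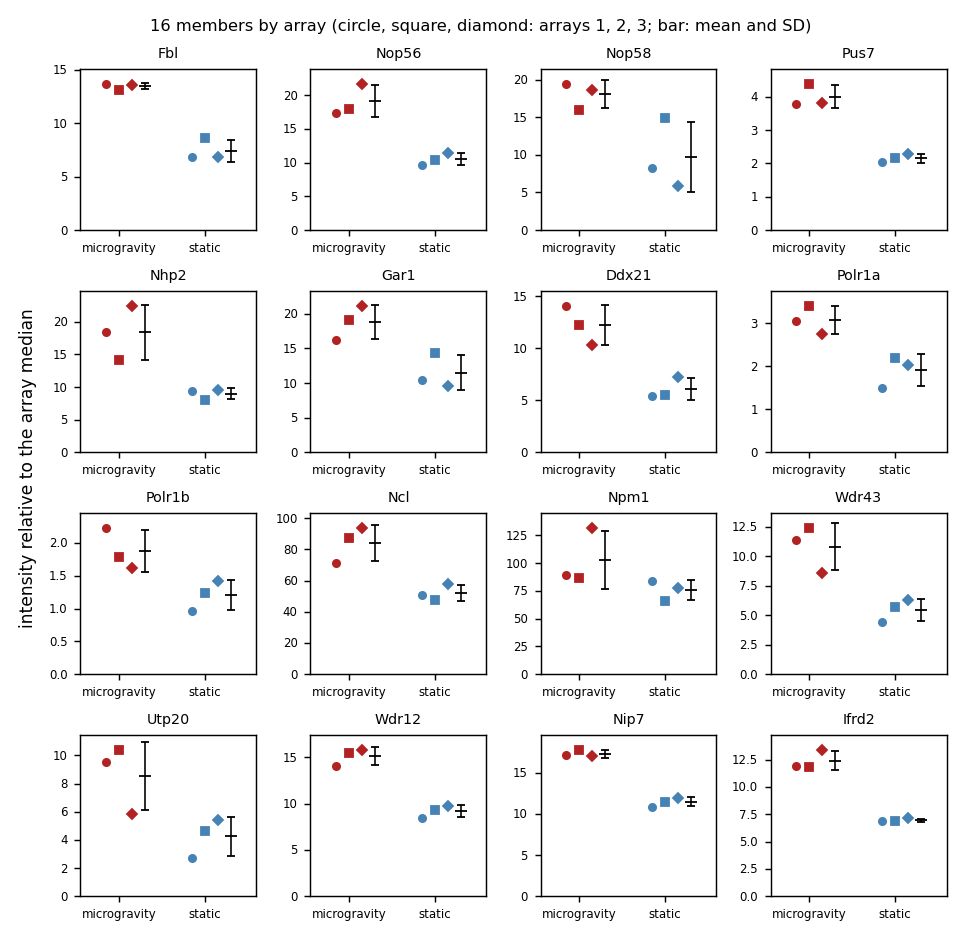
Relative intensity (y axis, multiples of the array median, linear from 0) of 16 of the genes on each array, simulated microgravity at left and static at right, with the mean and SD as a bar beside the points. The 16 genes were all taken from the 21 of the 38 whose groups do not overlap, and the 17 with overlapping groups are not shown. Among the 16, the narrowest gaps are in Nop58, Npm1 and Utp20.

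Genes of ribosomal DNA transcription were mixed in size, with 9 of 9 higher means and a median log2 change of 0.39. At an unadjusted p under 0.05, 3 of the 9 were higher, against 5.56% of all probes. Ddx21, an RNA helicase that acts in RNA polymerase I transcription and in rRNA processing, had 14.1, 12.2 and 10.3 in simulated microgravity, against 5.42, 5.54 and 7.24 in static cells. All microgravity arrays lay above all static arrays, at a ratio of 2.01 (log2 change 1.01, SE 0.18, limma adjusted p = 0.0969). The large catalytic subunits of RNA polymerase I are Polr1a and Polr1b. Polr1a had 3.05, 3.41 and 2.76 in simulated microgravity, against 1.50, 2.20 and 2.02 in static cells (log2 change 0.70, SE 0.20, limma adjusted p = 0.243). Polr1b had 2.23, 1.79 and 1.61 in simulated microgravity, against 0.964, 1.23 and 1.42 in static cells (log2 change 0.65, SE 0.23, limma adjusted p = 0.361). Neither subunit's groups overlapped.

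The subunits Polr1c and Polr1d, which RNA polymerase III also uses, had smaller differences, with log2 changes of 0.19 (95% interval -0.38 to 0.75) and 0.18 (95% interval -0.16 to 0.52). Polr1e, a subunit of RNA polymerase I alone, had 0.24 (95% interval -0.16 to 0.63). Groups overlapped for all 3. Whether Polr1a and Polr1b differ in their change from these subunits was not tested. Ubtf, the architectural factor that binds ribosomal DNA promoters, had 5.93, 6.76 and 5.51 in simulated microgravity, against 4.31, 4.64 and 5.63 in static cells. Static 3 lay above microgravity 3, and the 95% interval of the log2 change ran from -0.06 to 0.71. Tcof1 (treacle), a partner of Ubtf, had a log2 change of 0.39 (SE 0.27) and Mybbp1a, a nucleolar binding partner of Myb, 0.77 (SE 0.39), both with overlapping groups. The log2 change of Tcof1 was 0.12 without static 2, and that of Mybbp1a was 0.45 without static 1. Without microgravity 3, Polr1c, Polr1d and Polr1e had log2 changes of 0.01, 0.11 and 0.14.

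Of the 4 nucleolar phosphoproteins and chaperones, Ncl (nucleolin) had the largest log2 change. Its relative intensities were 71.5, 87.2 and 93.9 in simulated microgravity, against 50.6, 47.8 and 57.9 in static cells, with no overlap (log2 change 0.69, SE 0.18, limma adjusted p = 0.191). Npm1 (nucleophosmin), a histone and ribosome assembly chaperone, had 89.0, 86.3 and 132 in simulated microgravity, against 84.3, 66.0 and 77.8 in static cells. The lowest microgravity array was just above the highest static one, and microgravity 3 stood above the rest (log2 change 0.41, 95% interval -0.12 to 0.95, and 0.21 without microgravity 3). Nolc1, a chaperone of snoRNPs, and Lyar, a nucleolar zinc finger protein, had log2 changes of 0.38 (SE 0.21) and 0.27 (SE 0.18) with overlapping groups.

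The small subunit is cut free by a large complex that forms on the growing precursor. All 6 measured genes of this step had higher means, with a median log2 change of 0.56. At an unadjusted p under 0.05, 3 of the 6 were higher, against 5.56% of all probes. Wdr43, which joins the complex early and links it to ribosomal DNA transcription, had 11.4, 12.4 and 8.58 in simulated microgravity, against 4.42, 5.72 and 6.25 in static cells. No static array reached the lowest microgravity array (ratio 1.97, log2 change 0.98, SE 0.20, limma adjusted p = 0.127). Utp20, a large scaffold protein of the complex, had 9.50, 10.4 and 5.81 in simulated microgravity, against 2.71, 4.65 and 5.39 in static cells. Its groups did not overlap, but microgravity 3 was close to static 3 (log2 change 1.02, SE 0.33, limma adjusted p = 0.306).

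Bysl (bystin), needed for maturation of the small subunit, averaged 3.13 ± 0.409 in simulated microgravity and 2.15 ± 0.413 in static cells (SD, n = 3 each), with no overlap (log2 change 0.55, SE 0.20, limma adjusted p = 0.371). The helicase Ddx10 had a log2 change of 0.57 (SE 0.28) with overlapping groups. The processing factor Utp3 and the U3 particle protein Imp4 had the smallest changes of the 6, with log2 changes of 0.18 (SE 0.16) and 0.14 (SE 0.20) and overlapping groups. In 4 of the 6 genes microgravity 3 was the lowest microgravity array, and in all 6 static 1 was the lowest static array, against 30.6% and 32.5% of the 7854 probes with 6 values above the floor.

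**Figure D3:**
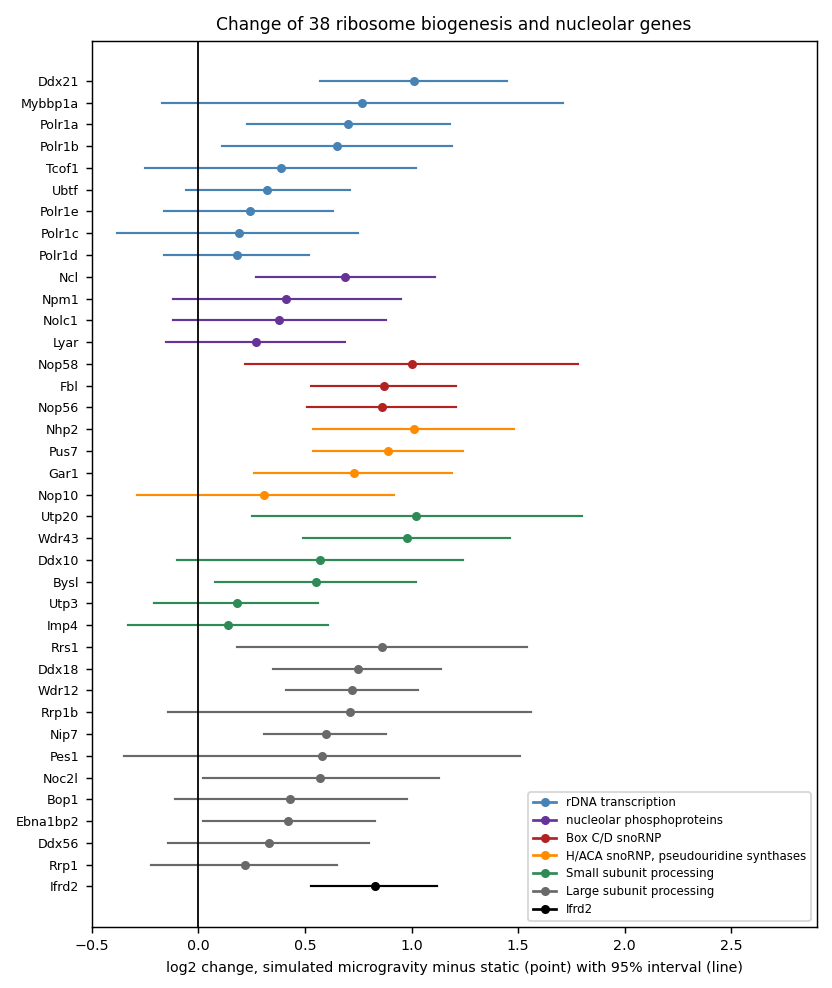
Log2 change (x axis, simulated microgravity minus static) of the 38 genes with its 95% interval, ordered by role down the page. All 38 points lie right of 0, from 0.14 to 1.02, and the intervals of 18 genes include 0.

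Maturation of the large subunit was represented by 11 measured genes. All 11 had higher means, with a median log2 change of 0.58. At an unadjusted p under 0.05, 6 of the 11 were higher, against 5.56% of all probes. Wdr12, Pes1 and Bop1 form a complex that matures the large subunit RNAs, and the 3 partners differed in how well they were measured. Wdr12 had 14.0, 15.5 and 15.8 in simulated microgravity, against 8.44, 9.31 and 9.73 in static cells, with tight groups that did not overlap (ratio 1.65, log2 change 0.72, SE 0.13, limma adjusted p = 0.0943). Pes1 had 12.3, 7.83 and 16.8 in simulated microgravity, against 11.5, 4.81 and 8.71 in static cells. The groups overlapped, arrays of each group spread over 2.14-fold and 2.38-fold, and the lowest array of both groups was replicate 2 (log2 change 0.58, 95% interval -0.35 to 1.51). With 1 array left out, the log2 change of Pes1 ran from 0.23 (without static 2) to 0.87 (without microgravity 2), and it was 0.32 without microgravity 3. Bop1 had 1.26, 1.27 and 1.09 in simulated microgravity, against 0.726, 1.11 and 0.882 in static cells, where static 2 lay above microgravity 3 (log2 change 0.43, 95% interval -0.11 to 0.98, and 0.28 without static 1).

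Nip7, a factor needed for large subunit precursor processing, had the smallest SE of the 11. It had 17.2, 17.8 and 17.0 in simulated microgravity, against 10.9, 11.5 and 11.9 in static cells, a ratio of 1.51 (log2 change 0.60, SE 0.12, limma adjusted p = 0.110). Microgravity arrays lay within 1.05-fold of each other and static arrays within 1.09-fold. The helicase Ddx18 had 11.2, 12.9 and 12.5 in simulated microgravity, against 6.36, 8.80 and 6.87 in static cells, with no overlap (log2 change 0.75, SE 0.16, limma adjusted p = 0.143).

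Rrs1 and Ebna1bp2, whose yeast counterparts bind each other on large subunit precursors, had log2 changes of 0.86 (SE 0.29) and 0.42 (SE 0.17), both with no overlap. The lowest microgravity array of Rrs1, at 2.81, barely cleared its highest static array, at 2.80. Noc2l, whose yeast counterpart takes part in large subunit export, had 0.57 (SE 0.23), with static 3 just above the lowest microgravity array. Ddx56 and Rrp1 had 0.33 and 0.22 with overlapping groups. Rrp1b had 0.71 (SE 0.33), but its cells were empty on microgravity 2 and static 2, so it was fitted on 2 arrays a group, with 1.58 and 1.18 in simulated microgravity, against 0.709 and 0.982 in static cells. It is counted among the 21 genes with no overlap.

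Taking all 38 genes array by array, each gene's log2 value was set against its own mean over the 6 arrays. The median of these deviations was 0.29, 0.32 and 0.28 on microgravity 1, 2 and 3, against -0.45, -0.22 and -0.23 on static 1, 2 and 3. The microgravity arrays were nearly alike, and static 1 lay lower than the other static arrays. Over 37 genes with 6 values, static 1 was the lowest static array for 22 (59.5%). The same held for 32.5% of the 7854 probes with 6 values above the floor. No microgravity array (0) was the lowest of the 6 for any of the 37, in a list chosen with this contrast known. Microgravity 1, 2 and 3 were the lowest of the 6 for 18.3%, 13.3% and 14.2% of the 7854 probes. Without static 1 the median log2 change of the list was 0.51, 37 of the 37 genes then fitted had higher means, and 14 had an unadjusted p under 0.05. Without microgravity 2 and static 2 it was 0.58, with 14 at an unadjusted p under 0.05. Over all probes, in either direction, 761 of 10004 were under it without static 1. Without microgravity 2 and static 2, 848 of 8896 were.

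A further 46 measured genes of ribosome biogenesis came from 117 listed by function, also with earlier results of these data known. Of the 46, 43 had higher and 3 had lower means in simulated microgravity. The median log2 change of the 46 was 0.44. At an unadjusted p under 0.05, 18 were higher and 0 were lower, against 5.56% and 5.28% of all probes. None (0) passed the adjusted threshold, which 0.276% of all probes passed. Exosc1, a subunit of the RNA exosome that trims rRNA precursors, had 12.5, 13.3 and 13.2 in simulated microgravity, against 5.84, 7.86 and 8.00 in static cells (log2 change 0.86, SE 0.16, limma adjusted p = 0.101). The other measured exosome subunits, Exosc5, Exosc8, Exosc9 and Exosc10, had smaller log2 changes of 0.44, 0.36, 0.54 and 0.27. Groups overlapped for all of these but Exosc9. Mrto4 and Mak16, large subunit assembly factors, had log2 changes of 0.71 and 0.66, and Pno1, which binds the small subunit precursor, 0.78. Exosc1, Mrto4, Mak16 and Pno1 had the smallest unadjusted p of the 46. The 3 lower means belonged to Mdn1, the large ATPase that remodels large subunit precursors, Nsa2, a large subunit factor, and Pelp1, a scaffold of rRNA processing, at ratios of 0.973, 0.986 and 0.997. The linear relative intensities of Mdn1 averaged 7.48 ± 3.39 in simulated microgravity and 7.39 ± 2.40 in static cells (SD, n = 3 each), so its direction depends on the scale.

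The same array medians were taken for cytosolic ribosomal proteins, the structural parts of the finished ribosome. For the 46 genes the array medians were 0.17, 0.26 and 0.22 on microgravity 1, 2 and 3, against -0.28, -0.15 and -0.17 on static 1, 2 and 3. For 56 ribosomal protein genes they were 0.01, -0.09 and 0.50 on microgravity 1, 2 and 3, against 0.07, -0.26 and -0.31 on static 1, 2 and 3, so static 1 lay above microgravity 1 and 2, and microgravity 3 stood apart. Of the 56, 54 had higher means, against 57% of all probes, and their median log2 change was 0.28. At an unadjusted p under 0.05, 1 was higher and 0 were lower, against 5.56% and 5.28% of all probes. The groups did not overlap for 8, all higher in simulated microgravity, against 8.11% of all probes higher. Whether the lists differ in their change was not tested. Of 20 proliferation genes, 14 had lower means in simulated microgravity, and the median log2 change was -0.12. At an unadjusted p under 0.05, 4 were lower and 0 were higher, against 5.28% and 5.56% of all probes. Whether proliferation bears on the nucleolar genes was not tested.

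**Figure D4:**
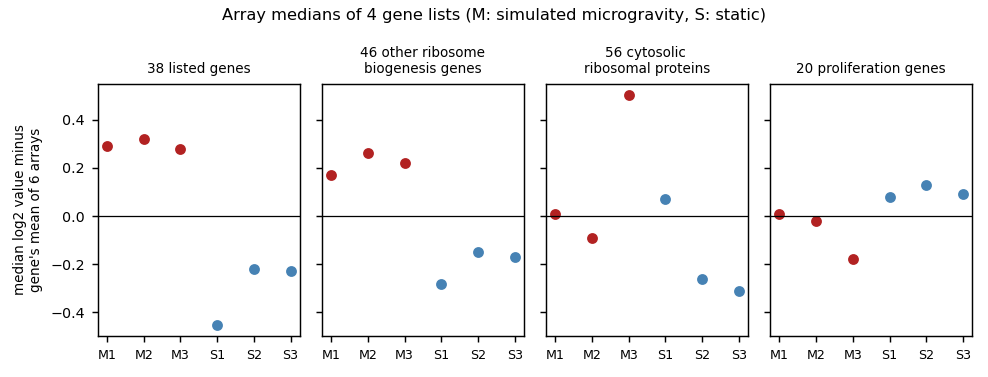
Median over each list of the log2 value minus the gene's mean of 6 arrays (y axis), for the 3 simulated microgravity arrays (M1 to M3) and the 3 static arrays (S1 to S3). The 38 genes sit at 0.28 to 0.32 in simulated microgravity and at -0.45 to -0.22 in static cells, whereas the ribosomal protein medians of the groups overlap.

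Of 14 regulators of ribosomal DNA transcription and cell growth, 10 were measured. Myc had 18.4, 22.7 and 19.2 in simulated microgravity, against 11.9, 13.7 and 14.5 in static cells, with no overlap (ratio 1.50, log2 change 0.59, SE 0.15, limma adjusted p = 0.191). Mxd4, a Max partner that represses Myc targets, had 0.374, 0.249 and 0.543 in simulated microgravity, against 1.62, 1.74 and 1.12 in static cells. Its microgravity arrays all lay well below the static arrays, at a ratio of 0.253 (log2 change -1.98, SE 0.35, limma adjusted p = 0.0915).

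The groups overlapped for the other measured members of the Myc network. Max, the partner that Myc and Mxd proteins need to bind DNA, had a log2 change of 0.03 (95% interval -0.36 to 0.42), while Mnt, Mxd1 and Mxi1 had 0.08, -0.33 and -0.47. Mycn had 5 of 6 values at the floor. Cdkn2a, which encodes the nucleolar growth inhibitor Arf beside p16, averaged 18.6 ± 5.67 in simulated microgravity and 26.1 ± 4.10 in static cells (SD, n = 3 each), with overlap from microgravity 3. The kinase gene Mtor had a log2 change of 0.25 (SE 0.28) and Rb1, a repressor of RNA polymerase I transcription, -0.01 (SE 0.16).

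Because Myc and Max bind the E-box CACGTG, this motif, which reads the same on both strands, was searched in the window from 250 bases before to 50 bases after each start site. Promoter sequences came from RefSeq on build GRCm38.p6, for 33 of the 38 genes. The motif stood in the window of 6 of these (18.2%), of 10 of 38 (26.3%) of the other ribosome biogenesis genes with an entry, of 11.5% of 7056 array genes and of 8.09% of all 27025 genes in the table. A match is a string of letters and not a measured binding site. The 6 stretches are shown, with the motif in capitals, so that its place and surroundings can be seen beside each gene's change.

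Imp4, chr1:34439696-34439725, plus strand: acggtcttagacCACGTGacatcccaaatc
Pus7, chr5:23783666-23783695, minus strand: ggcgcagcgccgCACGTGtgcgagcccggc
Utp20, chr10:88826765-88826789, minus strand: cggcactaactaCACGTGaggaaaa
Pes1, chr11:3963965-3963994, plus strand: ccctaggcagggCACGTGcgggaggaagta
Mybbp1a, chr11:72441355-72441376, plus strand: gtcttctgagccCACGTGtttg
Wdr43, chr17:71616220-71616249, plus strand: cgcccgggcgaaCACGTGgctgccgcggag

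In Imp4 the motif lay 115 bases before the start site, and in the other 5 it lay after it, at 2 bases (Pes1), 17 bases (Wdr43), 28 bases (Pus7, at 1 of its listed starts), 37 bases (Utp20) and 40 bases (Mybbp1a). The 6 genes had log2 changes of 0.14 (Imp4), 0.89 (Pus7), 1.02 (Utp20), 0.58 (Pes1), 0.77 (Mybbp1a) and 0.98 (Wdr43), which cover the whole range of the 38. Genes with no such letters in their window had both large and small changes. Nop56, Nop58, Nhp2, Ddx21 and Ifrd2 had log2 changes of 0.83 to 1.01, and Polr1c, Polr1d, Utp3 and Rrp1 had 0.18 to 0.22. Whether the motif goes with the size of the change was not tested. The 38 genes lie on 15 chromosomes, with at most 6 on any one.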

How the data were processed

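The deposited table holds intensity values on a linear scale, 1 per probe, for 10500 probes on 6 arrays, per the values themselves. How the authors made these values from the scans is not stated in any source used here. Array medians were 0.908 to 0.927, so the table was taken as already scaled. Values were divided by the median of their array, raised to 0.1 where lower, and put on the log2 scale. Probes at that floor throughout, or lacking 2 values in either group, were dropped (354). The remaining 10146 were fitted with limma 3.58.1 in R 4.3.3 (lmFit, eBayes with trend, 2-sided, Benjamini-Hochberg over all probes, threshold 0.05), after a check of the fit on simulated data. The floor understates changes of dim probes, and 3 arrays per group limit the precision.

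Probe symbols came from GEO's platform annotation, and other genes were matched through an NCBI gene table of GRCm38.p6. No source used here names the build of the probe design. The members and lists were chosen with earlier results of these data known. Values of every array are given for up to 14 higher and 6 lower genes with the smallest p and for 13 genes set by function, of which Dkc1 and Nob1 had no probe used here. Other genes that the text gives array by array (Rrp1b, Exosc1, Myc and Mxd4) were named after their values were seen, except that the regulators were all to be named. Alternatives were other normalizations, floors, filters, variance models, array weights, the replicate number as a block, each array left out and the lowest-mean probe of a gene.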

Additional observations from a re-analysis of the deposited data

How the results depend on the processing

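Every one of the 38 log2 changes kept its sign in every alternative run, except that of Imp4, which was 0.00 without microgravity 3 and 0.00 to 0.26 over the fits with 1 array left out. With 1 array left out, 14 of the 38 moved by over 1.5 times, and the 95% interval of each of these 14 includes 0. Beside Imp4 and those whose values the report gives, they were Nop10 (0.10 to 0.51), Rrp1 (0.11 to 0.36), Nolc1 (0.22 to 0.51), Ddx10 (0.32 to 0.81) and Utp3 (0.06 to 0.28). The list's median log2 change lay between 0.51 and 0.67, and that of the other ribosome biogenesis genes between 0.39 and 0.44. Genes of the list higher at an unadjusted p under 0.05 were between 14 and 22. Those higher with no overlap were 19 to 21 with no array left out. They were 22 to 26 with 1 array left out and 30 without microgravity 2 and static 2. Smaller groups separate more easily for any probe, and the share of all probes is not given for those settings. The larger counts therefore do not show a stronger difference. Genes of the list past the adjusted threshold, 0 in the reported fit, were 1 with quantile normalization (Ifrd2, adjusted p = 0.0467), 1 with the dimmest 50% of probes left out (Ifrd2, 0.0499) and 4 with array weights (Fbl, Nhp2, Pus7 and Ifrd2, 0.0315 to 0.0467), by limma, and 0 in all other settings, so whether Ifrd2 passes depends on these choices. Probes past the threshold, 28 in the reported fit, were 54 with quantile and 56 with cyclic loess normalization, 53 with the floor at 0.05 of the median, 59 with no floor, 59 and 54 with the dimmest 25% and 50% of probes left out, and 115 with array weights. They were 0 with any 1 array left out (761 to 968 at an unadjusted p under 0.05) and 0 without microgravity 2 and static 2, a setting chosen after seeing the data. With the replicate number as a block 0 probes (938 at an unadjusted p under 0.05) and 0 genes of the list passed, and 17 of the list were higher at an unadjusted p under 0.05. Deviations of same-numbered arrays from their group means correlated at -0.21, 0.46 and -0.18, so the numbers were not taken as pairs. Arrays other than replicate 2 did not correlate best with their own number. Microgravity 3 correlated with static 1 at 0.66 and microgravity 1 with static 3 at 0.38, and no fit took these as pairs. Rrp1b could not be fitted in 5 of the settings that left out arrays or used other filters, and Bop1 in 1. With 1 array left out, Rrp1b was fitted only without microgravity 2 or without static 2. It has no value on either array, so its log2 change of 0.71 could not move. Choosing the lowest-mean probe changed nothing for the 38, which have 1 probe each.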
